A study of Mus musculus with 2 samples.

Results

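The ephrin, Slit and netrin guidance genes make up 38 of the 23365 genes in a table of RNA sequencing of mouse embryonic fibroblasts, mesenchymal cells grown from embryos. The rule that picks them uses gene symbols and no measured value, and it takes every Eph receptor gene (Epha, Ephb), ephrin gene (Efna, Efnb), Slit gene, Robo gene and netrin gene (Ntn), with Unc5a to Unc5d and Dcc. The study set wild-type fibroblasts beside fibroblasts with TET1 and TET2 knocked out, enzymes that oxidize methylated cytosine in DNA, and has 1 library of each genotype. How the alleles were made, how many embryos or cultures stand behind a library and the age of the embryos were not stated in the labels. RNA was taken through a library kit that does not mark strand, per the labels' protocol, while another label gives the molecule as genomic DNA. The 2 conditions are called A and B in the authors' deposited table, without word of which is the knock-out, so every ratio below is B over A and carries no genotype. The level in each condition alone was not used, and levels are the authors' means over both.

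These genes encode cues that steer cells and growing axons. Ephrins sit in the membrane, the A class by a lipid anchor and the B class by a transmembrane segment, and they activate Eph receptor tyrosine kinases on a touching cell, while the B class can also signal back into its own cell. Slits are secreted ligands that repel cells through Robo receptors, and netrins are laminin-related secreted proteins that attract through Dcc and neogenin and repel, or control survival, through Unc5 receptors. In mesenchyme the same genes are known for tissue boundaries, cell sorting, migration and contact with vessels and nerves.

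The labelled cell type was checked against markers. All 12 fibroblast markers reached a mean normalized count of 50, with a summed mean of 1618943 in the authors' deposited table. A mean normalized count is the authors' average over both conditions of read counts divided by a library scaling factor. Other lists had summed means of 13801 for neurons (nearly all from Tubb3, Map2 and Stmn2), 3676 for epithelium, 2829 for endothelium, 632 for glia and neural crest and 135 for blood. Within those lists, Rbfox3, Cldn5, Tyrobp, Cd52 and Hbb-b1 were listed at 0 in the authors' deposited table, and Pecam1, Cdh5, Epcam and Ptprc had means of 9.80, 8.43, 4.37 and 3.53. Other markers of the same cells were higher in the authors' deposited table, with means of 1678 for endothelial Flt1, 418 for Kdr and 338 for Egfl7, 3516 for epithelial Cdh3, and 205 and 160 for the glial and neural crest markers Mbp and Ngfr. Some markers moved with the conditions. At least 2-fold higher in B were 5 of 12 fibroblast markers, 4 of 6 endothelial markers, 3 of 5 glial and neural crest markers, 1 of 2 blood markers and 0 of 3 neuron markers at the minimum mean, and the same size toward A was reached by 1 endothelial marker and 1 of 2 epithelial markers. Among all genes at that mean the shares were 8.31% toward B and 9.60% toward A. Their part in the ratios of the guidance genes was not tested, and in bulk RNA fewer cells of a type and less RNA per cell cannot be told apart. In the authors' deposited table the targeted gene Tet1 stood at a log2 ratio of -1.82 (adjusted p = 0.851) and Tet2 at -0.74 (adjusted p = 1.00).

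The sequence just upstream of the start site is shown for some of the genes on which the comparison turns, since the study's title concerns DNA methylation at developmental genes. Each run holds the 250 bases before the most upstream start in RefSeq, build GRCm38.p6, read 5′ to 3′ on the gene's strand. Capitals mark every CG dinucleotide, the usual site of DNA methylation. The first 4 are the genes with a sequence and an authors' adjusted p under 0.1, ordered from the highest ratio to the lowest, and Unc5d is the fifth gene with such a p. The last 2 had the ratios nearest to 1 among guidance genes with a sequence and are shown for contrast.
Slit3, chr11:35121206-35121455, plus strand: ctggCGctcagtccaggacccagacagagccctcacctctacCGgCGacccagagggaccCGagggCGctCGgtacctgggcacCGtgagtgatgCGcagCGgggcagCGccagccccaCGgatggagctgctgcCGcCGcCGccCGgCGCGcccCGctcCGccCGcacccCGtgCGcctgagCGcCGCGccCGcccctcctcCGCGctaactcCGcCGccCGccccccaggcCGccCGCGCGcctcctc
Epha1, chr6:42373269-42373518, minus strand: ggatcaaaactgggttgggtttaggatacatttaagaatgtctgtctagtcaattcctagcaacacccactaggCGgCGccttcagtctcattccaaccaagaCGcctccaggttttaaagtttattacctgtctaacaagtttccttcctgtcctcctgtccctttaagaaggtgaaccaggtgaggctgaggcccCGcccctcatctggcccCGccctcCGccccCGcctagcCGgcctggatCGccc
Efna3, chr3:89322940-89323189, minus strand: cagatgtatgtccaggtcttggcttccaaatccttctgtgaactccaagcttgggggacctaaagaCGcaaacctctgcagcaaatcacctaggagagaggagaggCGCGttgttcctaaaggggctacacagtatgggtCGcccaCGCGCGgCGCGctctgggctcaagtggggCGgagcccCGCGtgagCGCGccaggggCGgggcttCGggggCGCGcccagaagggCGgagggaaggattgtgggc
Efna1, chr3:89280952-89281201, minus strand: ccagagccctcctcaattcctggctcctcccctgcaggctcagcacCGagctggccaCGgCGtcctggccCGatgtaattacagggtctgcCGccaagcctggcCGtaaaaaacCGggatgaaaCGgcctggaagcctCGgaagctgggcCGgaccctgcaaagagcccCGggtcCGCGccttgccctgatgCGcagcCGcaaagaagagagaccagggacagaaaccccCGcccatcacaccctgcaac
Slit2, chr5:47982905-47983154, plus strand: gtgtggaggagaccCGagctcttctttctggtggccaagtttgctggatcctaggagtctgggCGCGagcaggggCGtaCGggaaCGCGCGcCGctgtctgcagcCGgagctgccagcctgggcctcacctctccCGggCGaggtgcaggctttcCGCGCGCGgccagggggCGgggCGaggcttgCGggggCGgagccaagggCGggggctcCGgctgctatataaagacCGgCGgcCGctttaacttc
Ephb2, chr4:136836013-136836262, minus strand: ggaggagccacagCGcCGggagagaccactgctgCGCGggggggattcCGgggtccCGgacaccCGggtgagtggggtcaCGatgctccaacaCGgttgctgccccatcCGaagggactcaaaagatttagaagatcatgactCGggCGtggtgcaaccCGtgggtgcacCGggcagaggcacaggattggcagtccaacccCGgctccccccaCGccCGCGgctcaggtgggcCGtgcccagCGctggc

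Among these 6 runs the CG content did not rank in the order of the ratio. The printed bases hold 35 CG in Slit3, 9 in Epha1, 19 in Efna3, 16 in Efna1, 25 in Slit2 and 20 in Ephb2. Of the 35 in Slit3, 24 lie nearer to the start site than to the far end of the run, as do 6 of the 9 in Epha1 and 16 of the 19 in Efna3. So do 15 of the 25 in Slit2, whose ratio was near 1, while the split was even in Efna1 (8 and 8) and Ephb2 (10 and 10). With the 50 bases after the start added, a 300-base window was at hand for 25 of the guidance genes at the minimum mean, with a median of 22 CG and a range from 9 in Robo2 to 41 in Slit3. The median was 21 for the 10 of them with a ratio of at least 2-fold in either direction and 24 for the other 15. Promoters of 9231 genes at the minimum mean had a median of 21 as well, and 99.6% of them held at least 1 CG. Over all 27025 promoters the median was 7 and 94.2% held at least 1 CG. CG, which reads the same on both strands, was the motif searched, and methylation of these sites was not analysed here.

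**Figure D1:**
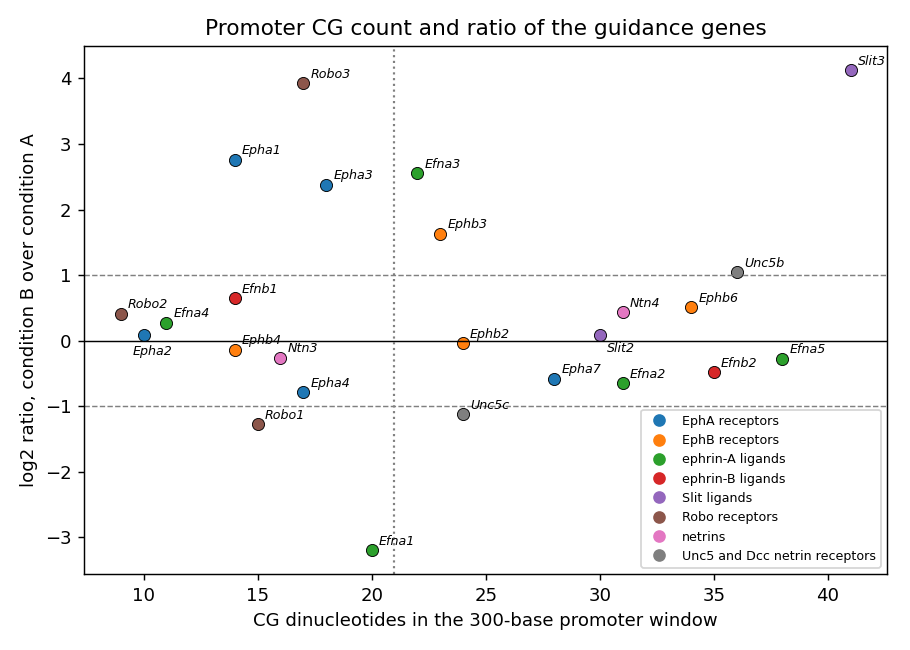
Log2 ratio, condition B over condition A, against the number of CG dinucleotides in the 300-base promoter window, for the 25 guidance genes with a sequence at a mean normalized count of at least 50, coloured by family. The dotted line is the median of 21 over genes at that mean and the dashed lines mark 2-fold; genes past them lie on both sides of the dotted line, from 14 CG in Epha1 to 41 in Slit3.

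At a mean normalized count of at least 50 stood 27 of the 38 guidance genes, and of the other 11 the netrin gene Ntn5 was listed at 0. A gene at that mean is called B-high where its log2 ratio was 1 or more, which is 2-fold, and A-high where it was -1 or less. There were 8 B-high guidance genes, 29.6% of the 27, beside 8.31% of the 12401 genes at this mean. The minimum applies to the mean over both conditions, so any gene can pass it through the condition where it is high. By their means and ratios given below, Unc5d and Robo3 passed through B alone. With a minimum mean of 200, which both miss, 6 of 25 guidance genes were B-high. Of all genes, 353 of 2741 were B-high at a mean from 200 to 1000 and 219 of 5266 from 1000 to 5000. From 5000 to 20000 it was 94 of 2612, and from 20000 up 29 of 458. There were 3 A-high guidance genes, 11.1%, a share near the 9.60% among all genes. Both directions together came to 40.7%, beside 17.9% of all genes and beside 17.4% when all genes were weighted to the 5 abundance bands of the 27. The median log2 ratio was 0.09, beside -0.04 over all genes, and the median size of the log2 ratio was 0.65, beside 0.34.

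The authors' adjusted p was under 0.1 for 5 of the 27 genes, 18.5%, beside 3.20% of all genes. The 5 include Unc5d, which passed the minimum through B alone. With a minimum mean of 200, 4 of 25 guidance genes had such a p. Of all genes, 5.47% had one at a mean from 200 to 1000, and 1.65% to 2.92% in the bands of higher mean. In the authors' deposited table the B-high genes Unc5d, Slit3, Epha1 and Efna3 and the A-high gene Efna1 had such a p. The cut-off was set here, and these p-values set 1 library against another, so they do not measure the spread between cultures of a genotype. No ratio below has a replicate check or an error. The other 6 A-high or B-high genes are given as values.

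**Figure D2:**
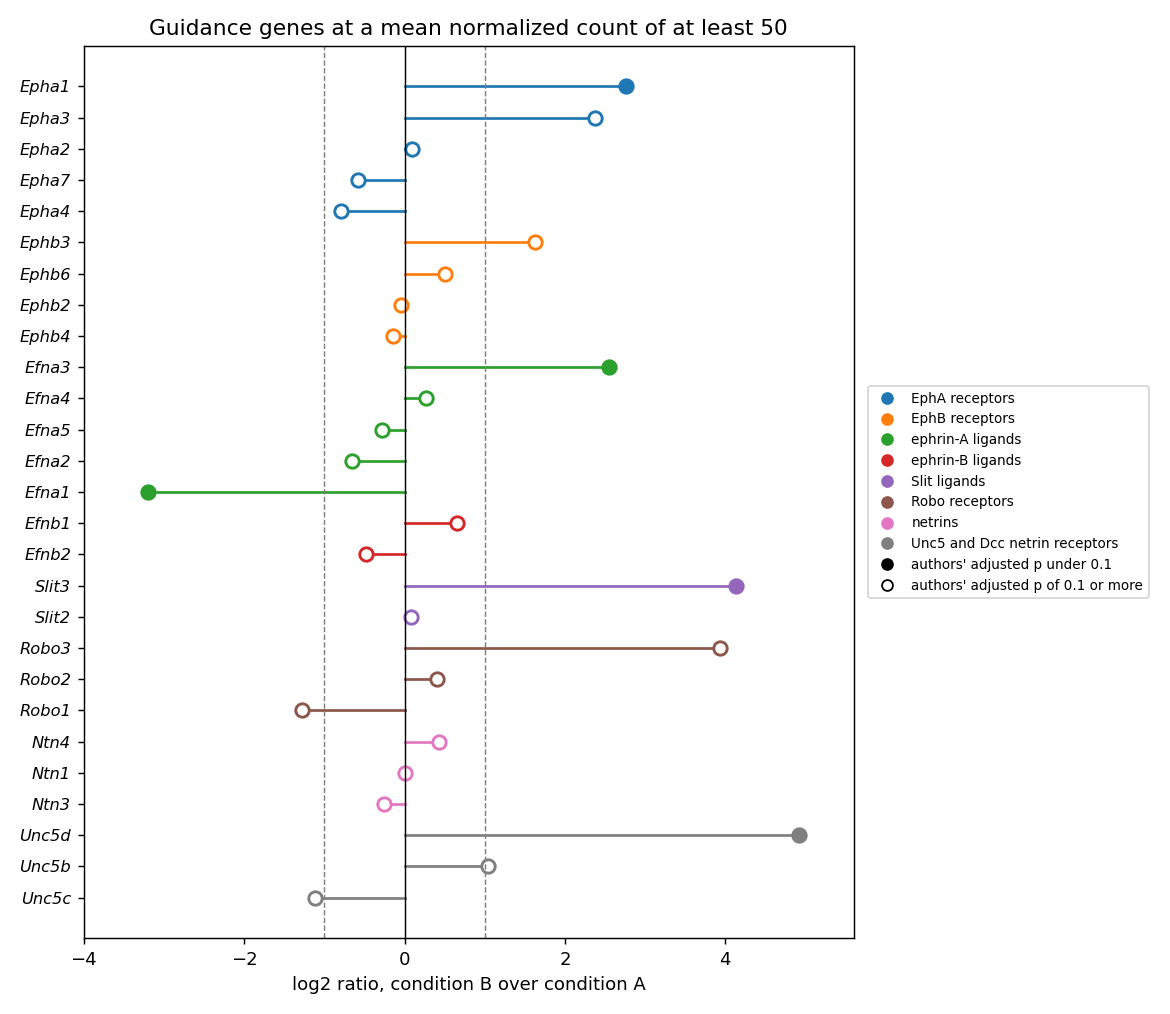
Log2 ratio, condition B over condition A, of the 27 guidance genes at a mean normalized count of at least 50, coloured by family. Filled points have an authors' adjusted p under 0.1, open points do not, and dashed lines mark 2-fold; Unc5d at 4.92 and Slit3 at 4.13 reach farthest toward B, and Efna1 at -3.20 farthest toward A.

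Among secreted ligands, the Slit genes differed widely from each other. Slit3, a large leucine-rich repeat protein that binds Robo receptors, had a mean of 9668 and was 17.5-fold higher in B (adjusted p = 2.02e-06 in the authors' deposited table). Slit2, its close relative, had a mean of 16168 and was 1.06-fold higher in B (adjusted p = 1.00 in the authors' deposited table). Ratios of 2-fold were uncommon at such abundance: of 2612 genes with a mean from 5000 to 20000, 6.78% were A-high or B-high, and the central 95% of log2 ratios ran from -1.14 to 1.14. Slit3 lay outside that range at 4.13 and Slit2 inside it at 0.08. The nearest genes at the minimum mean on either side of Slit3, Spdl1 and Pank3, stood at -1.57 and -0.28 on the log2 scale. In the authors' deposited table neither had an adjusted p under 0.1. The next genes out, Kcnmb1 and Rars, stood at 0.17 and 0.54. Slit1, best known from the nervous system, had a mean of 48.1 in the authors' deposited table, just under the minimum.

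Robo receptors went both ways. Robo1, a widely expressed Slit receptor, had a mean of 3963 and was 2.42-fold higher in A (adjusted p = 0.769 in the authors' deposited table). Robo2, another general Slit receptor and the neighbour of Robo1 among genes at the minimum mean, had a mean of 1279 and a log2 ratio of 0.41. Robo3, the divergent member that governs midline crossing of axons, was 15.2-fold higher in B at a mean of only 53.9 (adjusted p = 0.961 in the authors' deposited table). Of 1324 genes with a mean from 50 to 200, 45.6% were A-high or B-high, and the central 95% of log2 ratios ran from -3.47 to 5.18, so Robo3 at 3.93 lay within the range usual for so few reads. Robo4, the endothelial member, had a mean of 1.58 in the authors' deposited table. Robo1 at -1.28 also lay inside the central 95% of its band, which ran from -1.77 to 1.45 for genes with a mean from 1000 to 5000.

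**Figure D3:**
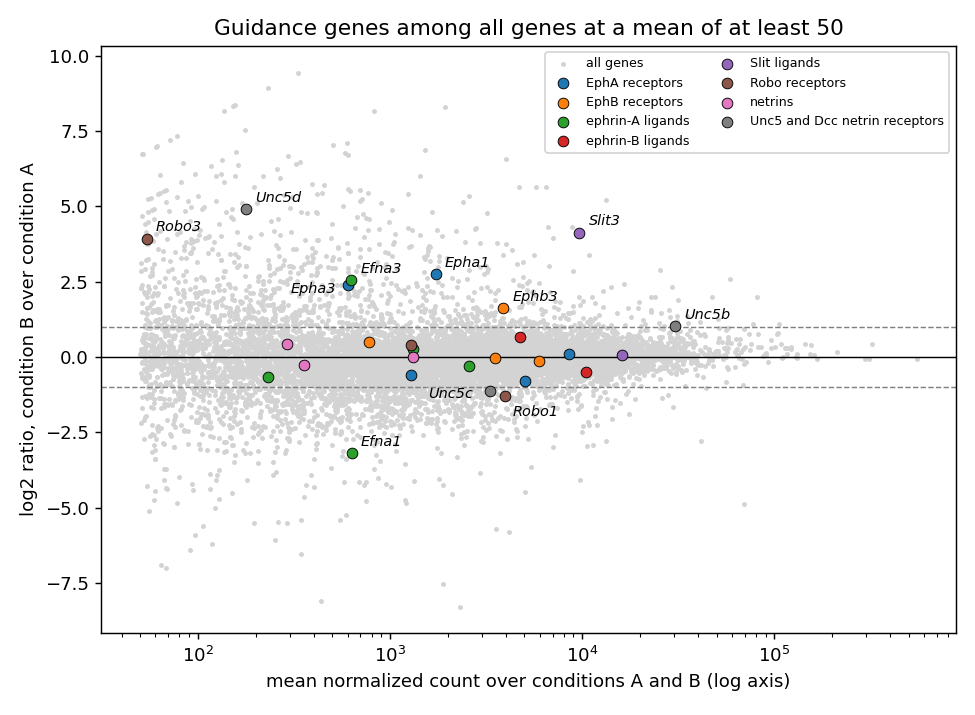
Log2 ratio, condition B over condition A, against the mean normalized count on a log axis, for all genes at a mean of at least 50 (grey, leaving out 6 with an infinite ratio) and the 27 guidance genes (coloured by family and named where at least 2-fold, the dashed lines). The grey cloud narrows with abundance; Slit3 at a mean of 9668 lies well outside it, while Robo3 at 53.9 lies among many genes with like ratios.

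Most partners of Slit and Robo had small ratios. Of 28 such genes at the minimum mean, which included Srgap adaptors, Ena/VASP proteins and proteoglycans that hold Slits, 1 was B-high (3.57%) and 3 were A-high (10.7%), beside 8.31% and 9.60% of all genes, and the median log2 ratio was 0.05. Srgap3, an adaptor that binds the tail of Robo, had a mean of 4556 and was 6.26-fold higher in A (adjusted p = 0.00708 in the authors' deposited table). Its relatives Srgap1 and Srgap2 stood at 0.39 and -0.08 on the log2 scale. The B-high gene was Pdgfra, the platelet-derived growth factor receptor alpha and also 1 of the fibroblast markers, 5.80-fold higher in B (adjusted p = 0.0191 in the authors' deposited table). The other A-high genes were Ndnf, a secreted neurotrophic factor, and the heparan sulphate proteoglycan Sdc4, which the authors' deposited table gives at -1.35 and -1.02 on the log2 scale.

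Netrin ligands had small ratios. Ntn1, the founding axon attractant, had a mean of 1314 in the authors' deposited table and a log2 ratio of 0.01, the value nearest to 0 among the 27 genes. Ntn3 and the basement membrane netrin Ntn4 had means of 357 and 292 and stood at -0.26 and 0.43.

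All 3 Unc5 receptors at the minimum mean were A-high or B-high, beside 17.9% of all genes, and in different directions. They are too few genes to read as a trait of the family. Unc5d, a receptor that also binds Flrt proteins, had a mean of 178 and was 30.3-fold higher in B, the widest ratio of the 27 genes (adjusted p = 0.0177 in the authors' deposited table). At 4.92 its log2 ratio still lay within the central 95% for genes with a mean from 50 to 200, -3.47 to 5.18. Its mean is near the upper end of that band, and 4.92 lies outside the -2.47 to 3.44 of means from 200 to 1000. Unc5b, known from vessel guidance and as a p53-regulated dependence receptor, had the highest mean of the guidance genes, 30333, and was 2.05-fold higher in B (adjusted p = 1.00 in the authors' deposited table). Its log2 ratio of 1.04 was the smallest in size among the A-high and B-high guidance genes. The central 95% of the 458 genes with a mean of at least 20000 ran from -0.63 to 1.41. Unc5c, whose loss causes the rostral cerebellar malformation of mice, had a mean of 3306 and was 2.17-fold higher in A (adjusted p = 1.00 in the authors' deposited table). Its neighbour among genes at the minimum mean, the BMP receptor gene Bmpr1b, leaned the other way at 1.73. Unc5c at -1.12 lay inside the central 95% of -1.77 to 1.45 for its abundance. Dcc, the classical attractive receptor, and Unc5a had means of 48.6 and 27.6 in the authors' deposited table, under the minimum.

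Of 25 netrin partners at the minimum mean, 6 were B-high (24.0%, beside 8.31% of all genes) and 1 was A-high (4%, beside 9.60%), and the median log2 ratio was 0.31. The list also counts netrin-G genes and their ligands, which are not among the netrins and receptors described above. Neo1 (neogenin), the relative of Dcc that also binds repulsive guidance molecules, had a mean of 16310 and stood at -0.78 on the log2 scale in the authors' deposited table. The A-high gene was Itga3, an integrin subunit reported to bind netrin, 4.93-fold higher in A (adjusted p = 0.0308 in the authors' deposited table). The B-high genes were Lrrc4c (the netrin-G ligand) at 2.34, Flrt2 (an Unc5 ligand) at 1.83, Ntng2 (netrin-G2) at 1.79, Itga6 (an integrin subunit) at 1.39, Adora2b (an adenosine receptor) at 1.35 and Dapk1 (a kinase of Unc5 death signalling) at 1.34, all log2 ratios from the authors' deposited table. None of these 6 had an adjusted p under 0.1, and Flrt2 and Lrrc4c came nearest at 0.137 and 0.148 in the authors' deposited table. Flrt3 stood at 0.39.

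Ephrin-A ligands held ratios far apart. Efna1, first described as a cytokine-induced gene of endothelium, had a mean of 632 and was 9.16-fold higher in A (adjusted p = 0.0130 in the authors' deposited table). Efna3, another lipid-anchored ephrin, had a mean of 626 and was 5.87-fold higher in B (adjusted p = 0.0889 in the authors' deposited table). Of 2741 genes with a mean from 200 to 1000, the central 95% of log2 ratios ran from -2.47 to 3.44, and Efna1 at -3.20 lay outside it while Efna3 at 2.55 lay inside.

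The pair are close neighbours. In the RefSeq gene order Efna1, Efna3 and Efna4 follow one another with 0 other protein-coding genes between them. Efna4 had a mean of 1309 in the authors' deposited table and a log2 ratio of 0.27, so 3 adjacent ephrin genes stood at -3.20, 2.55 and 0.27. The nearest genes at the minimum mean on the outer sides, Slc50a1 beside Efna1 and Adam15 beside Efna4, stood at -0.21 and 1.07, each with an adjusted p of 1.00 in the authors' deposited table. Exons of Efna3 share 14.6% of their bases with a gene on the opposite strand, Gm15998, in GENCODE M21. Those of Efna4 share 10.5% with 4731419I09Rik, also on the opposite strand. Reads from such bases cannot be told apart without strand. Efna2 and Efna5, the remaining ephrin-A genes, had means of 230 and 2582 and stood at -0.65 and -0.28.

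Ephrin-B ligands were neither A-high nor B-high. Efnb2, which marks arterial endothelium and signals in reverse, had a mean of 10415 in the authors' deposited table and a log2 ratio of -0.48. Efnb1, the X-linked ephrin of craniofacial and skeletal boundaries, had a mean of 4724 and stood at 0.65. Efnb3, known from the midline of the nervous system, had a mean of 49.0, the nearest value under the minimum, as Robo3 was the nearest above it.

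Of 9 Eph receptor genes at the minimum mean, 3 were B-high (33.3%, beside 8.31% of all genes) and 0 were A-high (beside 9.60%), too few genes to read the 0 as a direction. Epha1, the founding receptor of the family, had a mean of 1728 and was 6.75-fold higher in B (adjusted p = 0.0103 in the authors' deposited table). Epha3, a receptor of mesenchymal and stromal cells, had a mean of 605 and was 5.19-fold higher in B (adjusted p = 0.144 in the authors' deposited table). Ephb3, a receptor for B-class ephrins, had a mean of 3883 and was 3.10-fold higher in B (adjusted p = 0.315 in the authors' deposited table). On the log2 scale these genes stood at 2.76, 2.38 and 1.63, and the other 6 ran from -0.79 to 0.51. Of 5266 genes with a mean from 1000 to 5000, the central 95% ran from -1.77 to 1.45, and both Epha1 and Ephb3 lay outside it, while Epha3 lay inside the range of -2.47 to 3.44 for genes with a mean from 200 to 1000. Exons of Epha1 share 236 bases, 6.97% of their length in GENCODE M21, with Zyx on the opposite strand. Zyx had a mean of 37917 in the authors' deposited table and a log2 ratio of 0.54. Without strand, reads from the shared bases cannot be told apart, and their part in the mean and ratio of Epha1 was not tested.

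The other 6 Eph receptors at the minimum mean were neither A-high nor B-high. Epha2, which binds several ephrin-A ligands, had a mean of 8513 in the authors' deposited table and a log2 ratio of 0.09. Ephb4, the partner of ephrin-B2, and Ephb2 had means of 5965 and 3520 and stood at -0.14 and -0.04. Epha4, which can bind ephrins of both classes, had a mean of 5058 and came nearest to 2-fold without reaching it, at -0.79. Epha7 and Ephb6, the latter a receptor without kinase activity, had means of 1285 and 775 and stood at -0.58 and 0.51. Epha5 had a mean of 20.2 in the authors' deposited table, and Epha6, Epha8, Epha10 and Ephb1 had means from 0.527 to about 2, so their ratios are not read.

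Of 29 Eph and ephrin signalling partners at the minimum mean, 2 were B-high (6.90%) and 4 were A-high (13.8%), beside the same shares of all genes (8.31% and 9.60%), and the median log2 ratio was 0.08. None of the 29 had an authors' adjusted p under 0.1, beside 3.20% of all genes, too few genes to read this as a trait of the list. The A-high genes were Chn1 (alpha-chimaerin, a Rac GTPase-activating protein used by EphA4) at a log2 ratio of -2.26, Ngef (ephexin, which acts downstream of EphA receptors) at -1.72, Kalrn (kalirin, a guanine nucleotide exchange factor) at -1.35 and Rgs3 (a regulator in ephrin-B reverse signalling), whose ratio in the authors' deposited table was 0.499. The B-high genes were Grip1, a PDZ scaffold that binds ephrin-B tails, at 4.22 with a mean of only 102, and the Eph-binding adaptor Anks1b at 1.73. Adam10, the protease that sheds ephrins, had a mean of 14761 and stood at 0.40 in the authors' deposited table.

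Levels of different genes were compared per length, as the mean normalized count over both conditions per kilobase of the longest GENCODE M21 transcript. On that scale Unc5b stood highest at 5168 per kb, followed by the receptor Epha2 at 2176 and the ligand Efnb2 at 2173. Slit3 and Slit2 lay at 1849 and 1623, Efnb1 at 1450 and Ephb4 at 1374 per kb. The Slit3 value averages 2 conditions that differ 17.5-fold, so its place above Slit2 need not hold in each condition. Ephrin-A ligands spanned 108 per kb in Efna2 to 818 in Efna4, and netrins 70.9 in Ntn3 to 224 in Ntn1, leaving aside Ntn5. The genes with the 3 widest ratios sat at different levels, 1849 per kb in Slit3, 19.3 in Unc5d and 10.8 in Robo3. A longest transcript that is not the one expressed lowers the value, and no error is attached to the order.

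**Figure D4:**
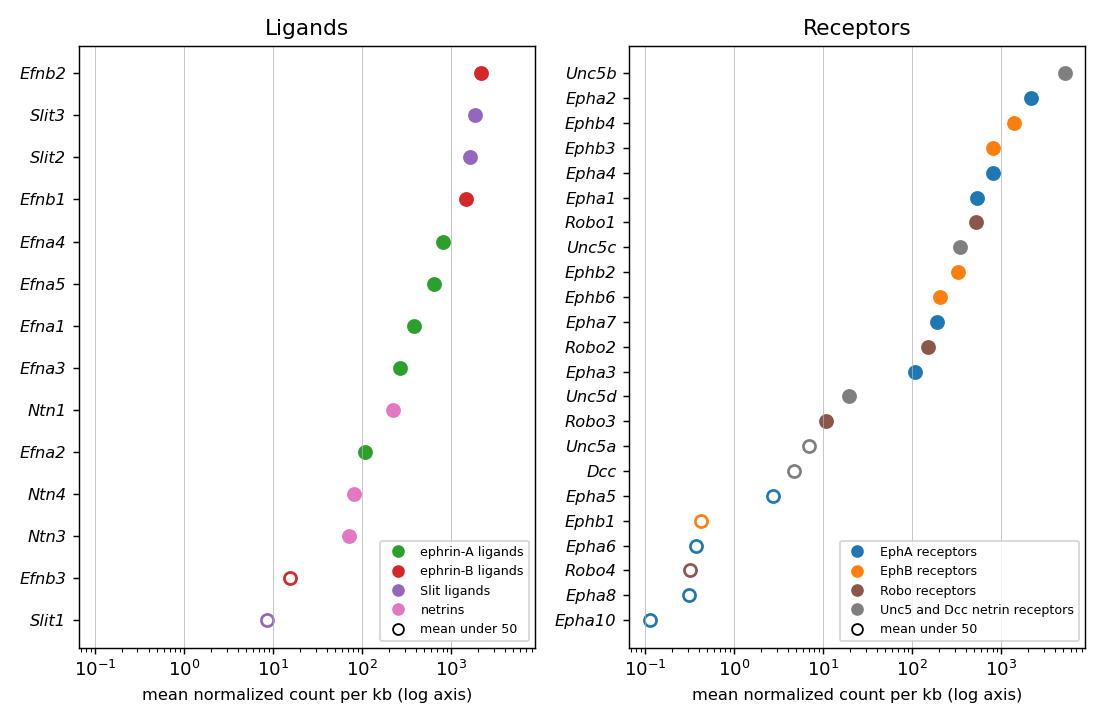
Mean normalized count over both conditions per kilobase of the longest transcript, on a log axis, for 14 ligand genes (left; Ntn5, listed at 0, is not drawn) and 23 receptor genes (right), coloured by family. Open points have a mean under 50; Unc5b is highest at 5168 per kb, followed by Epha2 at 2176 and Efnb2 at 2173.

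Among receptors at the minimum mean, 8 of 15 were A-high or B-high (53.3%), and among ligands 3 of 12 (25%), beside 17.9% of all genes, and the difference was not tested. Semaphorins with their plexin and neuropilin receptors, another guidance family, were counted in the same way. Of 27 at the minimum mean, 5 were B-high (18.5%) and 3 were A-high (11.1%), their median log2 ratio was -0.10 and their median size 0.78, beside 8, 3, 0.09 and 0.65 for the ephrin, Slit and netrin genes. The difference between the families was not tested.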

How the data were processed

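RNA from 1 wild-type and 1 TET1/TET2 knock-out library of mouse embryonic fibroblasts was sequenced. TopHat2 2.0, DESeq and build mm9 were used per the submitters' processing notes; the counting tool, annotation and dispersion settings are not stated in the labels. The authors deposited 1 comparison table: a signal (the mean normalized count over both conditions), a ratio (fold) of condition B over condition A, its log2 without pseudocount, and raw and adjusted p-values. The adjusted p-values equal a Benjamini-Hochberg adjustment over 17339 genes. 2 columns of values match no sample's label and were set aside, so depth per library and counting intervals were not analysed here. The mean normalized counts sum to 58127871.

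Every guidance gene is named, with its ratio where its mean was at least 50. Of each partner list the genes at 2-fold or more are named (up to 6 in each direction), with Neo1, Adam10, Flrt2, Flrt3 and Srgap1 to Srgap3 whatever their ratio. The members and lists were chosen with earlier results of these data known. Neighbouring genes, exon overlaps and the promoters to print were chosen after the values were seen. Promoters, matched by symbol for 33 of 38 genes, come from RefSeq GRCm38.p6, and lengths and overlaps from GENCODE M21. No coordinate was carried from one build to another. Alternatives were minimum means of 10, 200 and none, a log2 ratio of at least 2, a fold of at least 1.5, an adjusted p under 0.05, and centring on the median or on a mean after trimming 30% of the ratios and 5% of the abundances from both ends. The counts and centring were tested on simulated data with random counting noise alone. Those data held no spread between cultures, so they cannot tell how many genes such spread would carry past 2-fold. Python 3.11.15, numpy 2.4.6, pandas 2.3.3 and matplotlib 3.10.9 were used.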

Additional observations from a re-analysis of the deposited data

How the results depend on the processing

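No paired analysis was possible because each genotype has 1 library, and for the same reason none could be left out. B-high guidance genes numbered from 6 to 10 over the alternatives run, beside 8 as reported. A-high guidance genes numbered 1 with a log2 ratio of at least 2 and 5 with a fold of at least 1.5, beside 3, since a higher limit admits fewer genes. Over all genes, 3815 were A-high or B-high with no minimum mean, 842 with a log2 ratio of at least 2 and 3887 with a fold of at least 1.5, beside 2221. Guidance genes with an adjusted p under 0.1 numbered 5, and 4 with a minimum mean of 200, which leaves out Unc5d; 4 had one under 0.05, which leaves out Efna3. The median log2 ratio of the list ranged from 0.08 to 0.18. Both centres of all genes lay at -0.04, and with either of them all 27 guidance genes kept their direction and their side of 2-fold. Low abundance limits Robo3, Unc5d and the 11 genes under the minimum mean.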
